A study of Mus musculus with 12 samples.

Results

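Cluster 4 is the group of genes whose promoters gained H3K4me3 in the hippocampus of Del/+ mice and, in the grouping made by the authors, not in Kansl1+/- mice. It is described here through its Gene Ontology (GO) terms, that is, the annotated functions, processes and cell parts that its genes share. All 89 GO terms in the deposited table of this cluster were taken, out of 1076 term entries in the 8 deposited tables. The table gives for each term the number of cluster genes that carry it, the number of background genes that carry it and the number expected by chance. The members were chosen by these same counts, since a term is listed only at a p-value below 1e-05, so the counts describe the cluster and do not test it. The 89 terms are 0.420% of the 21172 terms tested, and nothing is read from that share. The expected numbers imply 162 genes in the cluster and 23468 in the background.

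The experiment compared 3 Del/+ mice, 3 Kansl1+/- mice and 6 wt mice, of which 3 were littermates of each mutant, all C57BL/6N and at postnatal day 30. Del/+ mice carry a heterozygous deletion from Arf2 to Kansl1, made by Cre recombination between loxP sites, which is the mouse counterpart of the human 17q21.31 microdeletion. Kansl1+/- mice carry a heterozygous tm1b allele of Kansl1 alone and derive from 1 embryonic stem cell clone. Whole hippocampus was used, so more cells of a type and more of the mark per cell cannot be told apart. The tables hold no value per mouse or per gene, so sequencing depth and the spread between mice are unknown. Neither the label of the cluster nor the tissue was checked against single genes. Intervals below are exact 95% Clopper-Pearson intervals of a share and cover counting error only. Genes in a list were called from the same mice and are not replicates.

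H3K4me3, the trimethylation of lysine on the tail of histone H3, marks promoters in use. KANSL1 is a subunit of the NSL complex, which carries the histone acetyltransferase MOF and acts at such promoters. In hippocampal neurons, voltage-gated sodium and calcium channels carry depolarising current, potassium channels repolarise the membrane and limit firing, and transmitter release at the synapse passes the signal to the next cell. GO describes these functions in nested terms: a voltage-gated potassium channel is also a potassium channel, a cation channel and a transporter, so 1 gene can be counted in many terms.

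The gene counts of the 89 terms ran from 6 for main axon, the trunk of an axon without its branches, to 111 for biological regulation, the widest term. The background size ran from 69 to 11607 genes. Relative to the expected number, the counts were 1.39 times as high for biological regulation and 12.6 times as high for main axon, with a median ratio of 4.45 over the terms. Small terms had the high ratios, which the listing threshold alone requires, because a small term needs a high ratio to be listed. The medians over the terms listed for clusters 1, 2 and 3 were 3.99, 3.53 and 3.42. The count nearest the threshold was that of single-organism developmental process, with 61 genes where 36.52 were expected and where 61 was also the smallest count that could be listed. In all, 18 terms stood at their smallest possible count and 10 stood 1 gene above it. Terms just outside the threshold are not listed.

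**Figure D1:**
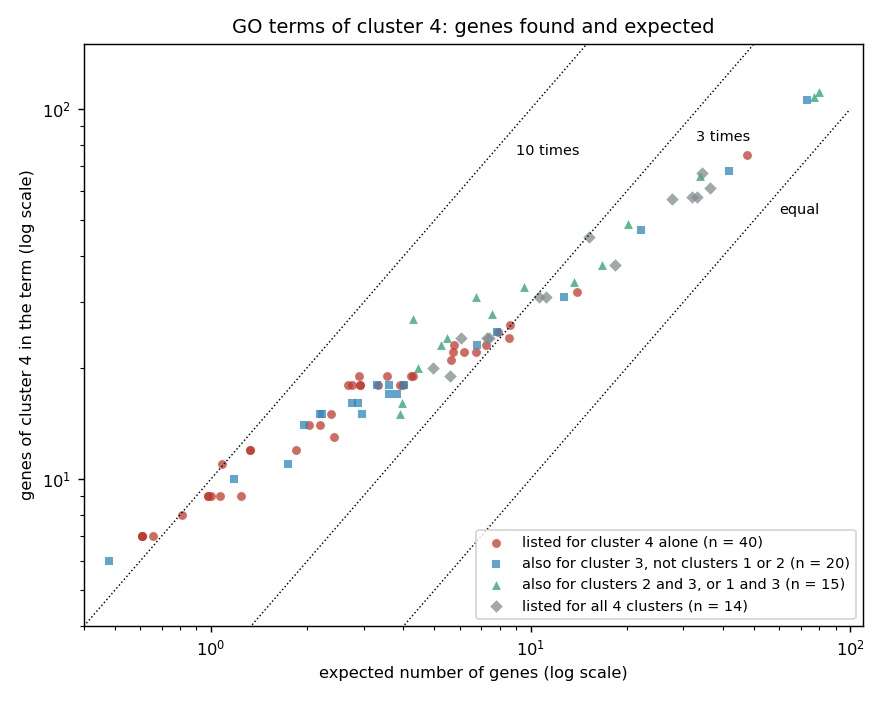
Genes of cluster 4 in each of the 89 GO terms against the expected number, both on log scales, with 1 point per term and dotted lines where the count equals the expected number or is 3 or 10 times as high. Colours and shapes show which other clusters list the term, and the 40 terms listed for cluster 4 alone lie mostly on the left, with a median ratio of 6.22 against 3.46 for the 49 others.

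Sorted by name into 10 themes, the largest theme was ion and transmembrane transport with 17 terms, followed by channels and their complexes with 14. Neuron parts and the plasma membrane with other broad terms had 10 each, nervous system development 9, potassium 8, synaptic signaling 6, the regulation of transport and of membrane potential 6, general development 5, and behavior, pain and G-protein signaling 4. Of the 89 terms, 40 are listed for none of clusters 1, 2 and 3. Every term of the transport and potassium themes is among these 40, as are 9 of the 14 channel terms. No term of the neuron part or development themes is. The remaining 49 terms are all listed for cluster 3 too, 26 of them for cluster 2 and 17 for cluster 1. The tables of clusters 1, 2 and 3 list 190, 104 and 125 terms, 0.897%, 0.491% and 0.590% of those tested. The terms shared with cluster 3 are 55.1% of the cluster 4 terms and 39.2% of the cluster 3 terms, those shared with cluster 2 are 29.2% and 25.0%, and those shared with cluster 1 are 19.1% and 8.95%.

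**Figure D2:**
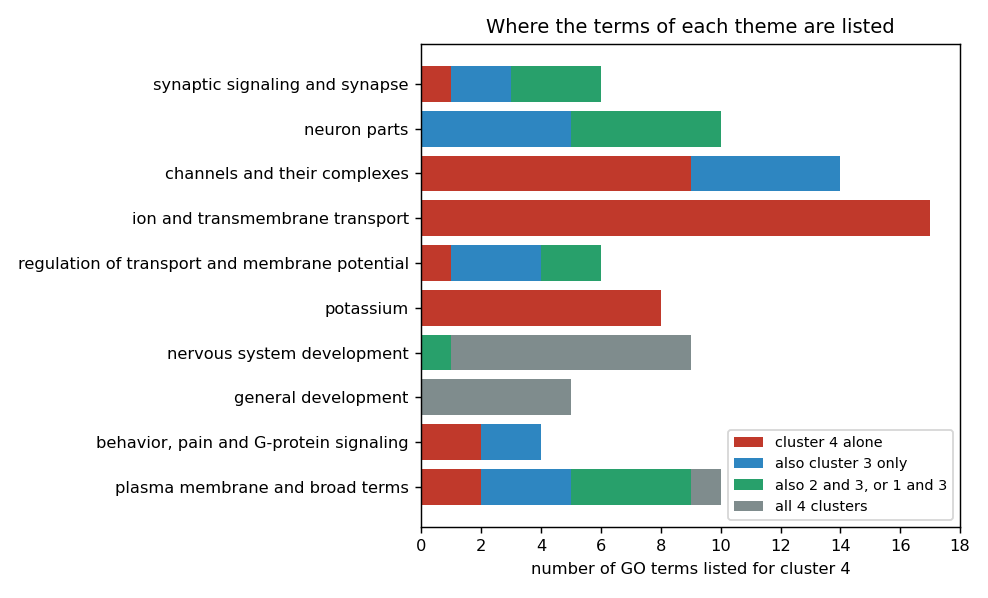
Number of GO terms listed for cluster 4 in each of 10 themes, divided by the other clusters that list the same term. All 17 terms of ion and transmembrane transport and all 8 potassium terms are listed for cluster 4 alone, and all 5 terms of general development are listed for all 4 clusters.

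Cell-cell signaling, the transfer of information between any cells, held 31 of the 162 genes (19.1%, 95% interval 13.4% to 26.0%) where 6.74 were expected. Within it, synaptic transmission held 27 genes where 4.27 were expected, a ratio of 6.33 and 11 genes more than it needed to be listed, a margin that nervous system development also had and no other term exceeded. The other 4 cell-cell signaling genes compared with 2.47 expected from the 358 background genes outside synaptic transmission, a ratio of 1.62. Thus 87.1% of the cell-cell signaling genes of the cluster were synaptic (27 of 31, 70.2% to 96.4%), against 63.3% in the background. As a place in the cell, the synapse held 23 genes (5.23 expected) and its parts held 17 (3.83 expected). Synaptic membrane, the membrane on either side of the cleft, held 12 genes (7.41%, 3.89% to 12.6%) where 1.84 were expected, and it was the one term of the theme listed for cluster 4 alone. Cell junction, which also takes in contacts outside the nervous system, had the lowest ratio of the theme, 3.18, with 25 genes.

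The parts of the neuron came next. Neuron part held 33 genes and cell projection, which includes cilia and other processes of any cell, held 34. Of those 34 genes, 28 belonged to neuron projection (82.4%, 65.5% to 93.2%, against 55.2% in the background). The 6 genes outside it were as many as the 6.14 expected, so the count of cell projection above its expected number lay within neuron projections. Axon and dendrite, the output and input branches of a neuron, each held 18 genes (11.1%, 6.72% to 17.0%). The expected numbers were 3.30 for axon and 3.61 for dendrite. Because both are kinds of neuron projection and that term held 28 genes, at least 8 genes were annotated to both. Neuronal cell body held 16 genes where 3.96 were expected. Axon part, which covers sections such as the initial segment and the terminal, held 11 genes, and main axon held 6 of these where 0.48 were expected.

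In the channel theme, ratios ran from 4.73 for plasma membrane protein complex to 10.1 for voltage-gated cation channel activity. Ion channel activity held 18 genes (11.1%, 6.72% to 17.0%) where 2.69 were expected. All 18 genes of the wider term channel activity were ion channels, although 35 of its background genes are not. Inside ion channel activity, cation channels accounted for 14 genes and voltage-gated channels, which open when the membrane depolarises, for 12. Voltage-gated cation channel activity held 11 genes where 1.08 were expected, so that 11 of the 12 voltage-gated ion channels were cation channels. Of the cation channel genes, 78.6% were voltage-gated (11 of 14, 49.2% to 95.3%), against 53.4% of the background cation channels, a value inside that interval. Both terms of such a pair are in the table because of these counts, so the share of a wider term that lies in a narrower one is given as a description. The other 6 ion channel genes, those not voltage-gated, were still 4.37 times their expected 1.37. Gated channel activity, which adds channels opened by transmitters and other ligands, held 14 genes, only 2 more than the voltage-gated ones, where 0.884 were expected for that remainder. At the level of protein complexes, ion channel complex held 14 genes and cation channel complex 10, with 1.95 and 1.18 expected.

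**Figure D3:**
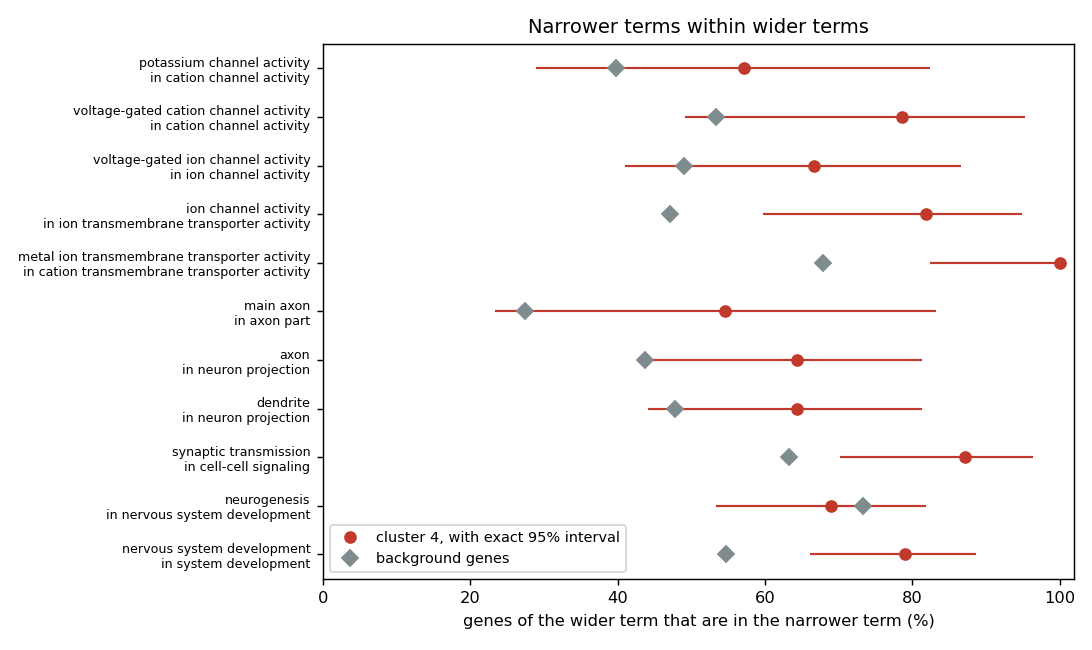
Percentage of the genes of a wider GO term that are also in a narrower term, for cluster 4 with exact 95% intervals and for the background genes, in 11 pairs of terms. In cluster 4, ion channels were 81.8% of the ion transmembrane transporters and synaptic transmission was 87.1% of cell-cell signaling. Neurogenesis took 68.9% of nervous system development (53.4% to 81.8%), an interval that includes its 73.3% in the background.

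The potassium terms were the smallest of the channel terms and had ratios from 8.41 to 11.5. Potassium ion transport, cellular potassium ion transport, potassium ion transmembrane transport and potassium ion transmembrane transporter activity held 9 genes each (5.56%, 2.57% to 10.3%), where about 1 was expected. The first had the lowest ratio of the theme because its background, 155 genes, was the widest. Potassium channel activity held 8 genes where 0.81 were expected, and 7 of these were voltage-gated potassium channels, the group that repolarises the membrane after an action potential. Voltage-gated potassium channel activity and voltage-gated potassium channel complex each held 7 of 88 background genes, a ratio of 11.5, and potassium channel complex held 7 of 89. With counts this low the intervals are wide, 1.75% to 8.70% for a count of 7, and of the 8 potassium terms 5 stood at the smallest count that can be listed. Potassium channels made up 8 of the 14 cation channels of the cluster (57.1%, 28.9% to 82.3%) and 39.8% of those in the background, a value inside that interval. The other 6 cation channel genes were 4.91 times the 1.22 expected, so potassium channels were not the whole of the cation channel count.

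Ion and transmembrane transport covers carriers and pumps as well as channels. Its widest terms were ion transport with 26 genes (16.0%, 10.8% to 22.6%), transmembrane transport with 25 and transporter activity with 24, the last with the lowest ratio of the theme, 2.81. Within them the counts concentrated on metal cations. Metal ion transmembrane transporter activity held 19 genes (11.7%, 7.21% to 17.7%) where 2.90 were expected, and the wider cation transmembrane transporter activity held the same number, so that none of its 199 further background genes was in the cluster, where 1.37 were expected. Ion transmembrane transporter activity held 22 genes, of which 18 were channels (81.8%, 59.7% to 94.8%, against 47.2% in the background). The 4 transporters that are not channels compared with 3.02 expected. Substrate-specific transporter activity, with 23 genes, and ion transmembrane transport, with 23, stood close to these. Monovalent inorganic cation transmembrane transporter activity, the movement of sodium, potassium and protons, held 13 genes where 2.43 were expected.

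Regulation of membrane potential, the setting of the voltage across the membrane, held 15 genes (9.26%, 5.28% to 14.8%) where 2.38 were expected, the highest ratio of its theme at 6.30, and is listed for cluster 4 alone. Regulation of ion transport held 20 genes, and 16 of these belonged to regulation of ion transmembrane transport, where 2.77 were expected. Regulation of transport held 31, and its 11 genes outside ion transport were 1.33 times the 8.29 expected. Regulation of localization had the most genes of the theme, 38, and its lowest ratio, 2.27.

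Nervous system development held 45 genes (27.8%, 21.0% to 35.3%) where 15.21 were expected. Of the 57 genes of system development, 12 lay outside nervous system development, where 12.6 were expected, a ratio of 0.954. Neurogenesis took 31 of the 45 genes, and the 14 outside it were 3.44 times the 4.07 expected. Generation of neurons held the same 31, and 0 genes came from the 74 background genes by which neurogenesis is wider. Neuron development, neuron differentiation and cell projection organization held 24 genes each, and neuron projection development, the growth of axons and dendrites, held 20 with the highest ratio of the theme, 4.05. Cell morphogenesis involved in neuron differentiation held 15 genes and regulation of nervous system development held 19, both the smallest counts that could be listed. Among the general terms, multicellular organismal development and anatomical structure development held 58 genes each, at ratios of 1.81 and 1.74. Regulation of multicellular organismal process, with 38 genes, had the highest ratio of these wide terms, 2.07, and single-organism developmental process the lowest, 1.67.

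Behavior, which covers the responses of the whole animal, held 18 genes where 4.03 were expected, and 15 of these belonged to single-organism behavior. Sensory perception of pain held 7 of its 95 background genes (4.32%, 1.75% to 8.70%) where 0.66 were expected, a ratio of 10.7. The adenylate cyclase-modulating G-protein coupled receptor signaling pathway, through which receptors such as those for opioids and monoamines raise or lower cyclic AMP, held 9 of 179 genes (5.56%, 2.57% to 10.3%) where 1.24 were expected. Both are listed for cluster 4 alone, and both stood at the smallest count that could be listed. Of the broad terms, plasma membrane held 66 genes and plasma membrane part 49 (30.2%, 23.3% to 37.9%), the latter with the highest ratio of this theme, 2.42. Intrinsic component of plasma membrane, with 32 genes, and membrane part, with 75, are also listed for cluster 4 alone among the clusters. Cell communication held 68 genes and regulation of cellular process 106.

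A term missing from another table can still hold genes there. For each of the 40 terms listed for cluster 4 alone, the largest gene count that would leave it unlisted in clusters 1, 2 and 3, which have 160, 214 and 212 genes, was computed from the sizes of the term, the list and the background. The share of the cluster 4 genes lies above this bound for all 40 terms because of the listing itself, since even the smallest count that can be listed in cluster 4 is above it, so only the sizes of the gaps are given. Relative to cluster 3, the share was higher than the bound by 1.02 to 5.12 percentage points, with a median of 3.07, and relative to cluster 1, the smallest list, by 0.378 to 4.23 points, with a median of 1.71. The lower end of the cluster 4 interval was above the bounds of both clusters 2 and 3 for 5 terms, and above that of cluster 1 for 0 terms.

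The 5 terms are ion channel activity, substrate-specific channel activity, channel activity, passive transmembrane transporter activity and metal ion transmembrane transporter activity. For ion channel activity, cluster 4 had 18 genes (11.1%), while up to 14 genes (6.60%) could be present unlisted in cluster 3, up to 14 (6.54%) in cluster 2 and up to 12 (7.50%) in cluster 1. Ion channel activity, substrate-specific channel activity, channel activity and passive transmembrane transporter activity are nested, each term within the next. Each held 18 genes of cluster 4, so they are the same 18 genes and not separate results. Channel activity and passive transmembrane transporter activity also have the same background count, 425. For metal ion transmembrane transporter activity, the 19 genes compared with bounds of 14 in clusters 2 and 3 and 12 in cluster 1.

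The other 35 terms had intervals that reached below every bound. Because the counts that set the intervals also put the terms in the table, clearing a bound is no test, and no term listed for cluster 4 alone, the 5 included, has been shown to differ from another cluster. Voltage-gated ion channel activity and voltage-gated channel activity (12 genes each) could hold up to 9 genes of cluster 3 (4.25%), and voltage-gated cation channel activity (11) likewise up to 9. For cation channel activity and gated channel activity (14 each) the bound in cluster 3 was 12. Regulation of membrane potential could hold up to 13 genes there, synaptic membrane up to 11, and sensory perception of pain and the 3 smallest potassium terms up to 7 each, the same number as in cluster 4. Among the wide terms, ion transport took 16.0% of cluster 4 and could take up to 12.7% of cluster 3 unlisted (27 genes), and membrane part took 46.3% and could take up to 42.9% (91 genes). The same holds for inorganic cation transmembrane transport (18 genes in cluster 4), inorganic ion transmembrane transport (18), cation transmembrane transport (18), inorganic cation transmembrane transporter activity (19), metal ion transport (19), cation transport (21), transmembrane transporter activity (22) and substrate-specific transmembrane transporter activity (22).

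**Figure D4:**
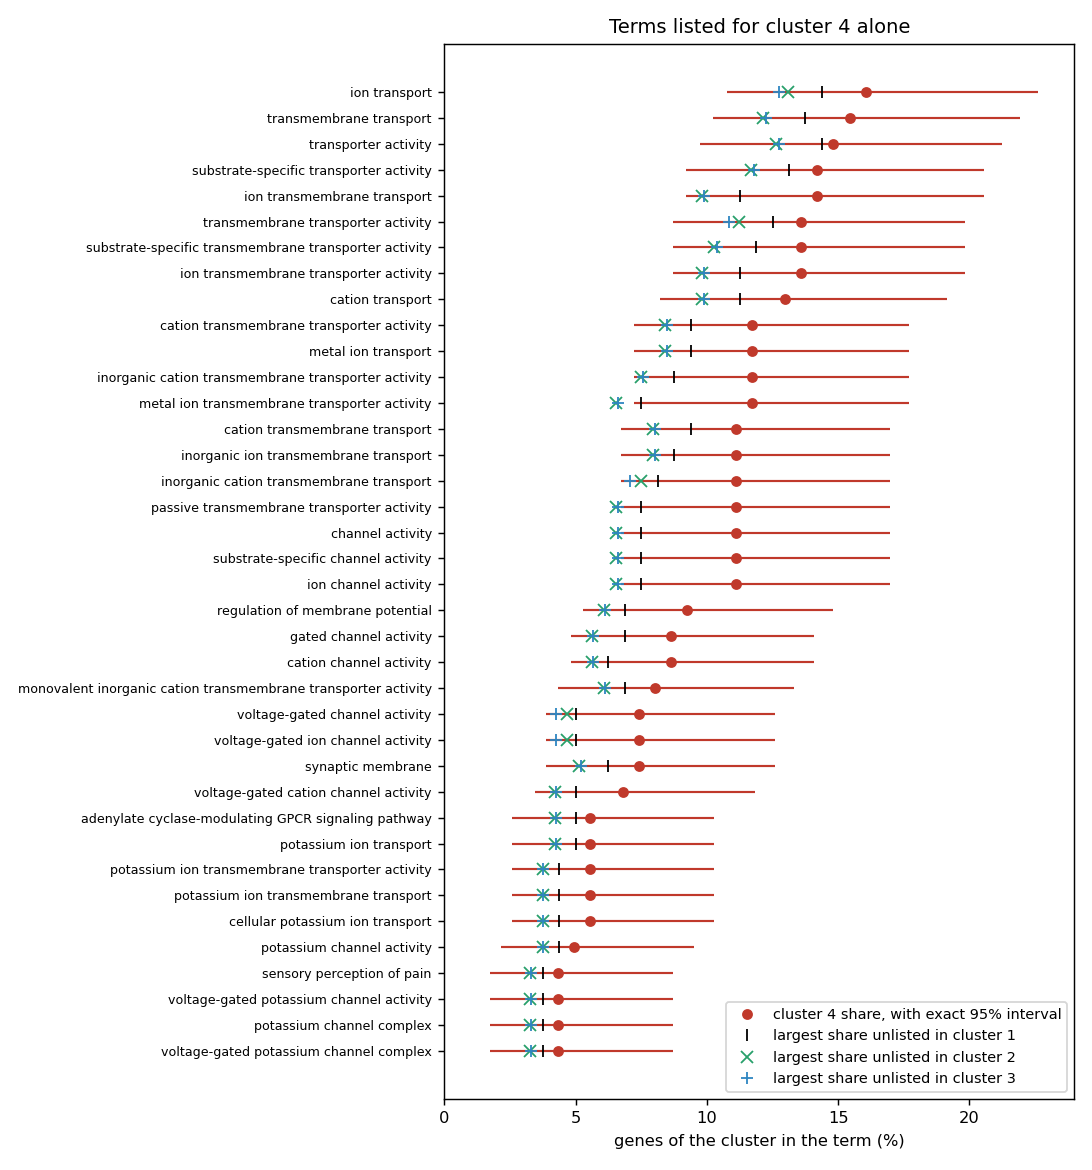
Share of the 162 genes of cluster 4 in 38 of the 40 terms listed for this cluster alone, with exact 95% intervals, and the largest shares at which the term would be unlisted in clusters 1, 2 and 3. Membrane part and intrinsic component of plasma membrane, with shares of 46.3% and 19.8%, are left out for scale. The listing itself places every point to the right of its marks, and the interval, which comes from the counts that chose the terms, clears the marks of clusters 2 and 3 only for 5 channel and metal ion terms. The channel terms among these hold the same 18 genes.

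For the 49 terms listed for both clusters 4 and 3, the shares can be set side by side. Both clusters were called against the same 6 wt libraries, and both tables hold only terms past the threshold. The share was higher in cluster 4 for 29 terms and lower for 20, with a median difference of 0.51 percentage points, and the 95% intervals overlapped for all 49. Overlapping intervals do not show that the shares are alike, and the differences were not tested. By theme, the share was higher in cluster 4 for all 5 terms of the channel and complex theme, all 8 broad terms, both behavior terms and 4 of 5 synaptic terms. It was lower for all 5 terms of general development, for 7 of 10 neuron parts and for 5 of 9 terms of nervous system development.

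Plasma membrane part had the largest difference in favour of cluster 4, with 30.2% of its genes against 25.0% in cluster 3 (53 of 212, 19.3% to 31.4%). Synaptic transmission followed, 3.93 points higher than in cluster 3, where 27 genes (12.7%) carry it. Cell junction was 2.70 points higher, with 15.4% against 12.7%. Transporter complex and transmembrane transporter complex were each 2.66 points higher, with 15 genes of cluster 4 (9.26%) and 14 of cluster 3 (6.60%), and may be nearly the same genes. Ion channel complex held 14 genes in both clusters and cation channel complex 10 in cluster 4 and 12 in cluster 3, so that in these the share was higher only relative to the smaller list. In the other direction, single-organism developmental process took 37.7% of cluster 4 (30.2% to 45.6%) and 46.2% of cluster 3 (39.4% to 53.2%), the largest difference of all at -8.57 points. Multicellular organismal development took 35.8% and 42.5%, cell projection 21.0% and 27.4%, anatomical structure development 35.8% and 42.0%, and neurogenesis and generation of neurons 19.1% and 23.6% each. The values chose the terms, so they stand as a description.

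**Figure D5:**
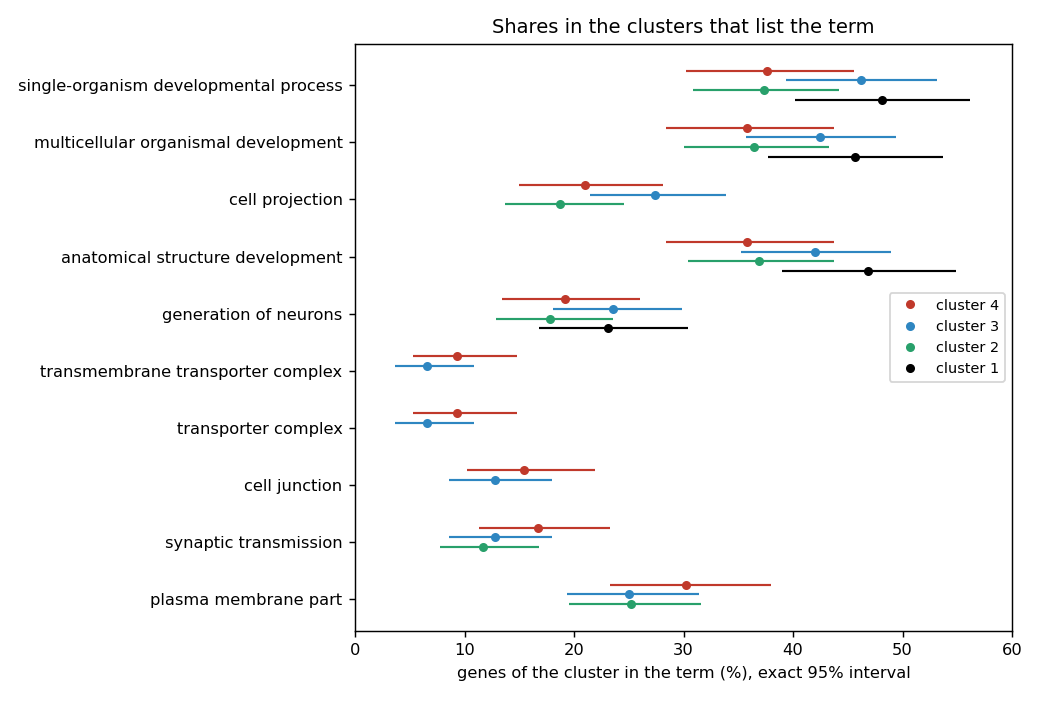
Share of each cluster in the 5 terms with the largest difference between clusters 4 and 3 in either direction, with exact 95% intervals and a point for every cluster that lists the term. Neurogenesis, which had the same difference as generation of neurons, is not drawn. The intervals of clusters 4 and 3 overlap in every term, from single-organism developmental process (37.7% and 46.2%) to plasma membrane part (30.2% and 25.0%).

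Clusters 2 and 1 gave the same picture of overlap. Of the 26 terms shared with cluster 2, in which genes rose in both mutants, 22 had the higher share in cluster 4, by up to 6.31 points for cell periphery, and 0 had intervals that did not overlap. Plasma membrane took 40.7% of cluster 4 and 35.0% of cluster 2, and synaptic transmission 16.7% and 11.7%. Of the 17 terms shared with cluster 1, in which genes rose in Kansl1+/- mice only, 3 had the higher share in cluster 4 and 14 the lower one, again with 0 pairs of intervals apart. The widest gap was for anatomical structure development, with 35.8% of cluster 4 and 46.9% of cluster 1.

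In reverse, 19 terms are listed for clusters 2 and 3 but not for cluster 4, and none is a transport term. They were picked by being listed in one table and not in the other, so the values are a description and no difference is drawn from them. Cell differentiation held 71 genes of cluster 3 (33.5%, 27.2% to 40.3%), and at most 45 genes of cluster 4 (27.8%) could carry it. Regulation of cell development held 32 genes of cluster 3 (15.1%, 10.6% to 20.6%) and at most 19 of cluster 4 (11.7%), and regulation of neurogenesis 25 (11.8%, 7.78% to 16.9%) and at most 16 (9.88%). For cell body, with 23 genes of cluster 3 (10.8%, 7.0% to 15.8%), the bound in cluster 4 was 16 (9.88%). Neuronal cell body, a kind of cell body, is listed for cluster 4 with 16 genes, so cell body held 16 there. The cluster 3 interval reached down to the bound of cluster 4, or below it, in these and in all but 1 of the 19 terms. The exception was developmental process, with 98 genes of cluster 3 (46.2%, 39.4% to 53.2%) and at most 61 of cluster 4 (37.7%). This term includes single-organism developmental process, which is listed for cluster 4 with 61 genes (30.2% to 45.6%), so developmental process also held 61 there. At that count the intervals of clusters 4 and 3 overlapped. As for the terms listed for cluster 4 alone, clearing a bound is no test. For 5 of the 19 terms the bound was above the share of cluster 3: regulation of response to stimulus took 26.4% of cluster 3 and could take up to 27.8% of cluster 4, regulation of signal transduction 21.7% and up to 22.2%, and negative regulation of multicellular organismal process 12.3% and up to 13.0%. For regulation of signaling and regulation of cell communication, the share of cluster 3 was 24.5% and the bound in cluster 4 24.7%.

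All 89 terms also appear in the table of the 512 genes with raised H3K4me3 in Del/+ mice, which lists 250 terms (1.18% of those tested). The 512 is the list size that the expected numbers imply and need not equal a number of promoters. The lists may share genes and were called against the same wt mice, so the values stand side by side without a comparison. Ion channel activity held 41 of those genes (8.01%) and 18 of cluster 4 (11.1%). Voltage-gated potassium channel activity held 12 (2.34%) and 7 (4.32%), potassium channel activity 18 (3.52%) and 8 (4.94%), and sensory perception of pain 12 (2.34%) and 7 (4.32%). Regulation of membrane potential held 33 (6.45%) and 15 (9.26%). Nervous system development held 142 (27.7%) and 45 (27.8%), and main axon held 16 (3.12%) and 6 (3.70%). Whether cluster 4 lies within the 512 genes was not tested, and in no term did its count exceed theirs.

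The table of the 343 genes with raised H3K4me3 in Kansl1+/- mice lists 302 terms (1.43% of those tested), and 32 of the 89 terms of cluster 4 are among them, 36.0% of the cluster 4 terms and 10.6% of that table. They include all 10 broad terms, all 9 terms of nervous system development, all 5 of general development and 4 of 6 on the regulation of transport, but 0 of the channel, potassium or ion and transmembrane transport terms. Of the 40 terms that no other cluster lists, 2 are listed there. Membrane part held 145 genes of that list (42.3%) and intrinsic component of plasma membrane 60 (17.5%), beside 46.3% and 19.8% of cluster 4. These libraries share the wt controls too.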

How the data were processed

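H3K4me3 ChIP-seq libraries of 12 hippocampi were mapped by the authors with BWA 0.6.2 (build mm9, per the submitters' processing notes). Peaks were called with their own script, promoters were compared by a count-based test with all 6 wt libraries as the common control, and gene lists were tested against GO by hypergeometric tests. The deposited tables, 1 for each of 8 gene lists, give, per term, a list count, a background count and an expected number, which is a score that the authors computed from the list and background sizes. Their p-values, corrected p-values and fold enrichments were not used as results. The p-values were read only to check the threshold, to find the term nearest it and, with the Bonferroni values, to find the number of tests. The tables hold 0 columns of values per sample.

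Background and list sizes were found as the only whole numbers, for backgrounds of 12000 to 40000 genes, that returned all 1076 printed expected numbers. Ratios are counts over the unrounded expected number. The smallest count that can be listed was taken from the hypergeometric distribution at 1e-05, as a bound and not as a test, and all 1076 listed terms had at least that count. For 36 pairs of nested terms, the counts were checked to be nested in every table that lists both. The procedure was tested on simulated data, which cannot show whether the authors listed every term past the threshold. Themes were assigned by term name. The terms named were, in each theme, those with the highest count and the highest and lowest ratio, all those listed for cluster 4 alone and the 5 largest differences from cluster 3 in each direction. Others were added for context after their values had been seen. Members, themes and term pairs were chosen with earlier results of these data known. Alternatives were terms of at most 1000 genes, identical terms counted once, a limit of 1e-06, matching by name, 1 gene fewer and Wilson intervals. Computation was in Python 3.11.15 (numpy 2.4.6, scipy 1.17.1), with plots drawn in matplotlib 3.10.9.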

Additional observations from a re-analysis of the deposited data

How the results depend on the processing

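With terms of at most 1000 background genes, 59 of the 89 terms were left, and 18 of the 25 terms shared with cluster 3 had the higher share in cluster 4. Of the 40 terms listed for cluster 4 alone, 34 were left. With the stricter limit of 1e-06, 65 terms would be listed for cluster 4, and 34 of them for none of clusters 1, 2 and 3. Those 34 need not all be among the 40, since a stricter limit can also remove terms from the other clusters. With Wilson in place of Clopper-Pearson intervals, 1 term, metal ion transmembrane transporter activity, had an interval (7.64% to 17.6%) above the bounds of clusters 1, 2 and 3, the highest of which was 7.50%. Counting identical terms once left 85 terms and 36 listed alone. With 1 gene fewer the median ratio was 4.21, and the ratios of the 60 named terms ran from 1.37 to 10.5. All 60 stayed within the intervals of the full counts. This tests nothing, because at these counts the loss of 1 gene cannot lead outside an exact interval. Depth could not be examined. Single replicates could not be left out, because the tables hold no value per sample. No paired analysis was possible because no value per sample is given.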
